A study of Mus musculus with 6 samples.

Results

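The genes of the cornified envelope and of the epidermal differentiation complex were followed in primary mouse dermal fibroblasts with and without 5-aza-2'-deoxycytidine. The members were all probe sets whose single gene symbol in the platform annotation begins with Lce or Sprr and a number, or is Ivl, Crct1, Prr9, Lor, Rptn, Flg, Hrnr, Tchh or Kprp, whatever their intensity. This gave 40 of the 45037 probe sets outside the manufacturer's controls, and they name 33 genes. The suffix of 9 of the 40 (_x_at or _s_at) marks probes shared with other transcripts, and these are kept apart from the 31 unique probe sets. A further 3 probe sets list several Sprr2a genes and are no members.

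Cells were explanted from the dermis of B6 mice aged 0 to 2 days, of mixed sex, and used at passage 4. In 3 cultures the drug was present at 5 µM for 96 hours, renewed every 24 hours, and 24 hours in drug-free medium followed. The other 3 cultures were untreated controls, and 1 expression array was run per culture. 5-aza-2'-deoxycytidine is a cytidine analogue that traps DNA methyltransferases in replicating DNA, so the comparison asks which of these genes differ in level after demethylating treatment. Methylation itself was not measured on these arrays.

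The cornified envelope is a shell of cross-linked protein that replaces the plasma membrane of keratinocytes at the end of their differentiation. Transglutaminases join precursors such as involucrin (Ivl), loricrin (Lor), the small proline-rich proteins (Sprr) and the late cornified envelope proteins (Lce). Their genes lie side by side in the epidermal differentiation complex, together with S100 calcium-binding genes and with the fused S100 family of filaggrin (Flg), hornerin (Hrnr), repetin (Rptn) and trichohyalin (Tchh). Most are textbook markers of differentiated epidermis.

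The 2% trimmed mean of the deposited signals lay between 179.1 and 223.9 on control arrays and between 149.2 and 209.4 on treated arrays. Signals below are MAS5 intensities after 1 factor per array brought these means to 193.2. All 12 fibroblast marker genes (among them Col1a1, Dcn and Vim) exceeded the array median on all 6 arrays at 1 or more probe sets. The 3' to 5' ratio of the Actb control probe sets was 1.26 ± 0.010 (SD of 3 arrays) without the drug and 1.16 ± 0.019 with it. That of Gapdh was 0.739 ± 0.016 and 0.764 ± 0.024. The part of these ratios in the results was not tested. A difference in signal cannot tell a change in how many cells carry a transcript from a change in the amount per cell.

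Promoter sequences from RefSeq were available for 29 of the 33 genes, and 6 are printed because they show the letters that Sprr and Lce promoters do or do not hold. The first 4 belong to the genes with the largest called changes, on the log2 scale used below, that the table holds. Lce1m and Sprr2i were not called and are shown for contrast within their families. Each window runs 5′ to 3′ from 250 bases before to 50 bases after the annotated start. Capitals mark the AP-1 motif TGANTCA, the TATA box letters TATAAA and the letters AATAAAA.
Lce1h, GRCm38.p6 chr3:92765016-92765315, minus strand: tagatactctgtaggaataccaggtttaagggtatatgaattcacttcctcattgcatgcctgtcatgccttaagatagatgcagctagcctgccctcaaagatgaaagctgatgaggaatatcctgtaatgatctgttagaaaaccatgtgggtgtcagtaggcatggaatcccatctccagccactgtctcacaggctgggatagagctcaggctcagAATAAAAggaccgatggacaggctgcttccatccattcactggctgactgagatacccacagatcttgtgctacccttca
Ivl, GRCm38.p6 chr3:92573686-92573985, minus strand: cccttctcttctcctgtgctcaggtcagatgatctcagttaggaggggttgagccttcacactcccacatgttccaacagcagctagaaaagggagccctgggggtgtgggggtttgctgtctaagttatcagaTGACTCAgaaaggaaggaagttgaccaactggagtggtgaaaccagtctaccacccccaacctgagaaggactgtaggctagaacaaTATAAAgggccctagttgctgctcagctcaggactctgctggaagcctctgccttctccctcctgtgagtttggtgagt
Sprr2h, GRCm38.p6 chr3:92385435-92385734, plus strand: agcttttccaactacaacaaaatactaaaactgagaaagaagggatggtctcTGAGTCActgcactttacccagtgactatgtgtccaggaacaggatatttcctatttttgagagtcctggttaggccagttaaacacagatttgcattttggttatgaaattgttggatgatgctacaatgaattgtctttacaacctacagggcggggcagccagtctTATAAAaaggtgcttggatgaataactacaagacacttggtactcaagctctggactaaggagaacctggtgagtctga
Prr9, GRCm38.p6 chr3:92123898-92124197, minus strand: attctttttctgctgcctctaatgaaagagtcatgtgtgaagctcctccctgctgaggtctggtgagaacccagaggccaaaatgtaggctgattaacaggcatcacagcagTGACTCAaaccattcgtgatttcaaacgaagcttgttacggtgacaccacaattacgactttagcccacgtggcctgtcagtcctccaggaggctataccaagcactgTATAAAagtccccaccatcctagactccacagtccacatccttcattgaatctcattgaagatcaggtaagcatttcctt
Lce1m, GRCm38.p6 chr3:93019012-93019311, minus strand: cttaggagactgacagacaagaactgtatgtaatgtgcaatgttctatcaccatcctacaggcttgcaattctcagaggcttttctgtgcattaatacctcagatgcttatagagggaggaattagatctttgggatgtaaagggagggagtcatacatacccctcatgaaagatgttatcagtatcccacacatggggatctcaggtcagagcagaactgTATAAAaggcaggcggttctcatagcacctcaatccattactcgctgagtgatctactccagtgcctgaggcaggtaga
Sprr2i, GRCm38.p6 chr3:92407741-92408040, plus strand: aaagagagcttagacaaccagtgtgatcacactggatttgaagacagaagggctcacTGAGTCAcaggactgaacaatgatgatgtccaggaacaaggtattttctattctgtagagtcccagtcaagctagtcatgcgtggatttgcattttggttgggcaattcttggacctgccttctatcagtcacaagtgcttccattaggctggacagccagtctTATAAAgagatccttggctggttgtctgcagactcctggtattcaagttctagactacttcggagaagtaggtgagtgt

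In these windows the AP-1 and TATA letters were frequent in Sprr promoters. In Lce promoters the AP-1 letters were absent, and the TATA letters were about as frequent as in all promoters. The AP-1 motif, which reads the same on both strands, occurred in 7 of 8 Sprr promoters (Sprr3 was the exception) and in 0 of 10 Lce1 and 0 of 4 Lce3 promoters, against 7.81% of all 32851 promoters in the table. The TATA box, on either strand, was found in 8 of 8 Sprr promoters, 2 of 10 Lce1 (Lce1d and the printed Lce1m) and 0 of 4 Lce3, against 13.6% of all. In Sprr2h, Sprr2i, Sprr2d, Sprr2f and Sprr2k it began 29 bases before the start. The letters AATAAAA, searched after the Lce1h sequence had been seen, lay in 6 of 10 Lce1 promoters, each time 30 bases before the start, in 2 of 4 Lce3 promoters at other positions, and in 8.39% of all promoters on either strand. The Ivl, Lor and Prr9 promoters each held both the AP-1 motif and the TATA box. In the fused S100 family 2 of 4 promoters held the AP-1 motif and 3 of 4 the TATA box. Of the other motifs searched on both strands, the cyclic AMP response element TGACGTCA was in 0 of 29 and the GC box GGGCGG in 1 of 29 (Sprr2h), with 1.79% and 35.7% of all promoters. Of 10 promoters of called genes 5 held the AP-1 motif and 3 the letters AATAAAA. Of 19 promoters of genes not called, 7 and 6 did. A match describes the letters in this window and is not evidence of binding.

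The promoters were poor in CG dinucleotides, the site of DNA methylation. The 29 held a median of 1 CG in 300 bases, with a range from 0 to 5, where all promoters had a median of 7. The windows of 8 genes held 0, among them the called Ivl, Sprr1a, Sprr3 and Lce1i and the uncalled Lce1b, Lce1a2, Lce3c and Lce3f. Over all genes with a probe set and a promoter (the first listed one), a called rise was found for 7.75% of 2103 genes with 0 to 3 CG, 11.8% of 3270 with 4 to 11 and 17.5% of 9079 with 12 or more. Among members with 0 to 3 CG, 9 of 26 rose, and among those with more, 1 of 3. The classes were not matched for signal level, and the share called lower by class is not given. Over all probe sets, 3652 of the 4084 called higher were among the 23388 above the array median on at least 3 arrays. The part of signal level in these shares was not tested.

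**Figure D1:**
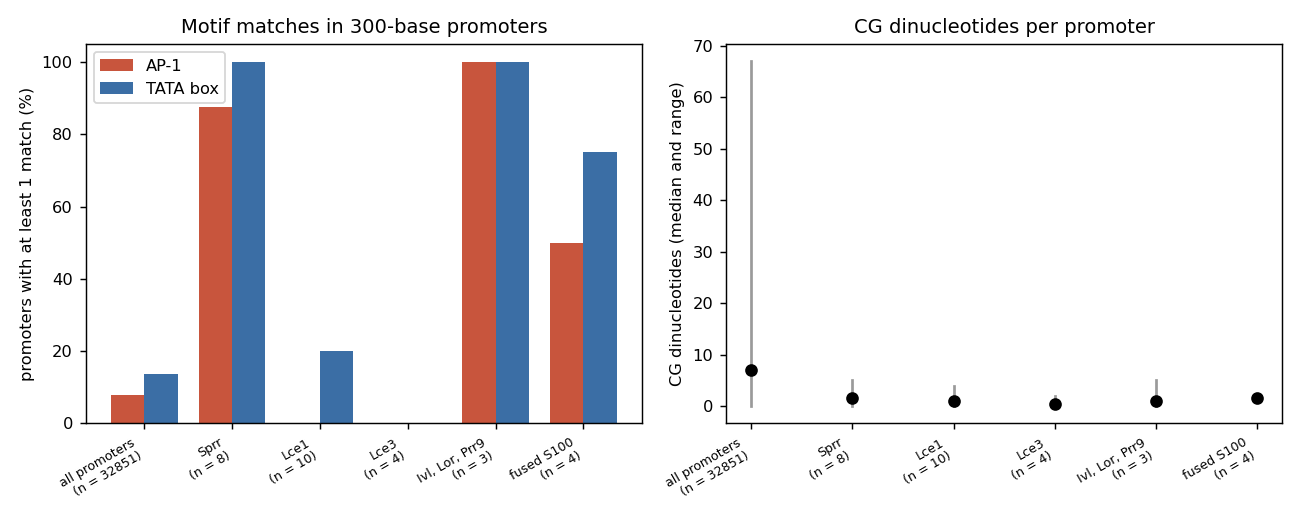
Left, bars give the percentage of 300-base promoters with at least 1 match to the AP-1 motif or the TATA box. Right, points give the median and lines the range of CG dinucleotides per promoter, for all promoters and for each family. Sprr promoters reach 87.5% and 100% for the motifs, Lce1 promoters 0% and 20%, and no family exceeds 5 CG.

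After treatment 13 of the 40 member probe sets, naming 12 genes, were higher and 0 were lower by limma (adjusted p under 0.05 over all 45037 probe sets). The background was 9.07% of probe sets called higher and 9.8% called lower, and 32.5% of the members were called higher. By gene, 12 of 33 members had a probe set called higher, where 14.5% of all singly named genes did. The median log2 change of the 40 was 0.47, against 0.00 for all probe sets, and 34 of the 40 changes were positive, against 22719 of 45037. At an unadjusted p under 0.05, 16 members were higher and 0 lower, where 6515 of all 45037 probe sets were higher and 6753 lower. The 3 treated arrays lay above the 3 control arrays at 18 members and below them at 0, with a background of 16.8% above and 17.3% below.

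Unique probe sets contributed 10 of 31 (background 8.58%) and shared ones 3 of 9 (background 13.4%). Of the 40, 26 lay below the array median on every control array. From below the 40th percentile on all controls to above the median on all treated arrays went 6 members, against a background of 0.435% of all probe sets. A filter keeping probe sets above the array median on at least 3 arrays would pass 21 members, some of them through their treated arrays alone.

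**Figure D2:**
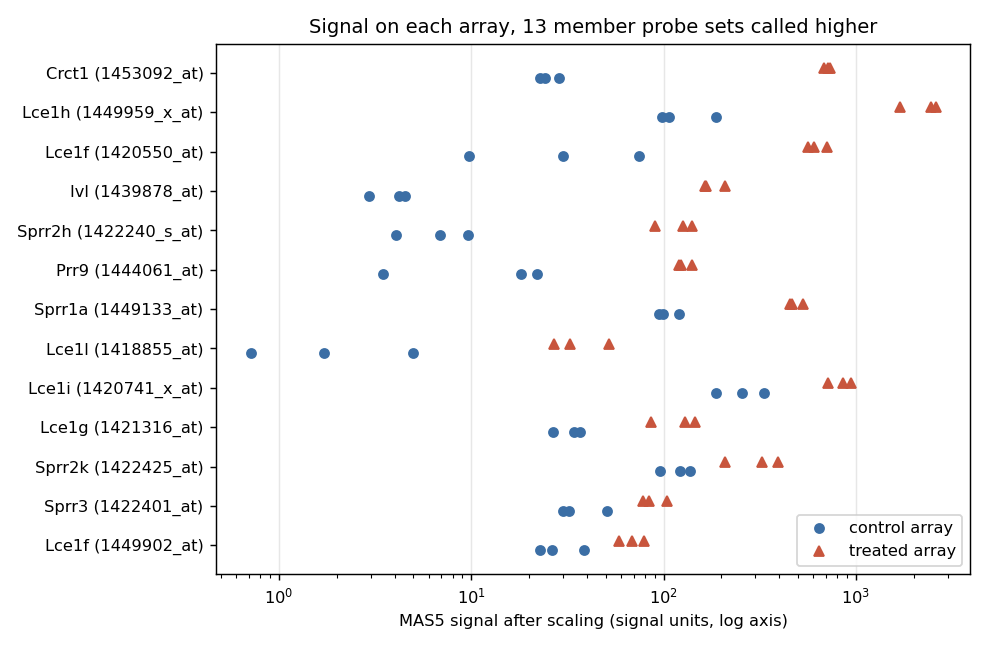
Scaled MAS5 signal on a log axis for each of the 13 member probe sets called higher, with circles for the 3 control arrays and triangles for the 3 treated arrays. In every row the treated arrays lie to the right of the controls, from Crct1 (22.8 to 28.5 against 683.3 to 729.8) down to the dimmer Lce1f probe set (22.8 to 38.7 against 58.7 to 79.3).

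Involucrin, a scaffold protein laid down early beneath the membrane, was near the bottom of the control arrays and above the median after treatment at 1 of its probe sets. At 1439878_at the control cultures read 4.23, 4.53 and 2.95 and the treated ones 207.7, 163.6 and 166.0, in the order of their replicate numbers here and below. Each treated value lay far above every control value. The log2 change, on the scale log2(signal + 9.66) used throughout and treated minus control, was 3.79 ± 0.27 (SE; limma adjusted p = 2.47e-05). This scale understates the change of a signal that starts below 9.66. The second Ivl probe set, 1422222_at, read 1.47, 3.24 and 2.85 in controls and 2.59, 4.74 and 5.35 after treatment. Its log2 change was 0.19 (95% interval -0.16 to 0.54). With every value below 9.66, this probe set says little about any difference and does not show the rise seen at the first.

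Crct1, a small cysteine-rich protein of the complex, was higher in every treated culture by a wide margin. Its signal was 22.8, 24.3 and 28.5 in controls and 729.8, 683.3 and 713.2 in treated cultures. The group means were 25.2 ± 2.96 and 708.8 ± 23.6 (SD of 3 arrays), the log2 change 4.37 ± 0.13 (SE; limma adjusted p = 3.17e-07), and its rank among all 45037 changes 19. Its place among the members depended on the pseudocount: Ivl was above it with a pseudocount of 1 (5.21 against 4.77) and Lce1h with 38.6 (3.77 against 3.55). Prr9, a proline-rich protein encoded beside loricrin, read 18.1, 22.01 and 3.46 in controls and 121.1, 140.5 and 123.0 in treated cultures. The groups stood well apart, with a log2 change of 2.61 ± 0.37 (SE; limma adjusted p = 0.00114).

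Loricrin, the glycine-rich main component of the mature envelope, was not called at any of its 3 probe sets. At 1420183_at the controls read 155.5, 113.0 and 124.5 and the treated cultures 152.2, 293.4 and 142.7, so treated array 2 stood above the rest and the groups overlapped. The log2 change there was 0.49 (95% interval -0.10 to 1.08) and at 1420184_at 0.01 (95% interval -0.84 to 0.87). The shared probe set 1448745_s_at was at 1.47, 1.73 and 1.53 in controls and at 13.1, 7.25 and 2.21 in treated cultures, near the bottom of each array, with a log2 change of 0.56 (limma adjusted p = 0.144). On leaving out treated array 3 it passed the threshold (log2 change 0.80, limma adjusted p = 0.0319). Kprp, the keratinocyte proline-rich protein, read 136.0, 108.1 and 127.1 in controls and 127.6, 133.5 and 173.2 in treated cultures. These ranges overlapped, and the log2 change of 0.20 had an interval from -0.17 to 0.58.

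The small proline-rich proteins cross-bridge other envelope proteins, and 4 of their 9 probe sets were higher. Sprr1a, which is also known from stressed and injured tissues outside the epidermis, read 99.3, 121.1 and 94.4 in controls and 456.2, 532.3 and 466.8 in treated cultures. Its mean signal was 4.62-fold higher, a log2 change of 2.11 ± 0.13 (SE; limma adjusted p = 8.97e-06). It was above the array median on all control arrays already, which the called probe sets of Ivl and Crct1 were not.

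Sprr2h, at a shared probe set, went from 6.9, 9.6 and 4.07 in controls to 90.1, 126.3 and 140.4 in treated cultures. The log2 change was 2.95 ± 0.31 (SE; limma adjusted p = 0.000206). Sprr2k read 95.7, 121.5 and 137.1 in controls and 393.3, 327.0 and 208.4 in treated cultures, with treated array 3 nearest to the controls (log2 change 1.29 ± 0.23; limma adjusted p = 0.004). Among the protein-coding genes of the annotation, Sprr2i alone lies between Sprr2h and Sprr2k. The promoters of Sprr2h and Sprr2k were 81.8% identical in a global alignment, the highest value among 28 Sprr pairs (median 53.3%).

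Sprr3, a family member of internal stratified epithelia such as oesophagus, read 29.9, 50.7 and 32.3 in controls and 104.0, 83.6 and 78.1 in treated cultures. The groups did not overlap, and the log2 change was 1.07 ± 0.27 (SE; limma adjusted p = 0.0214). Its call was lost on leaving out control array 1 or 3 or treated array 1 or 2 (limma adjusted p from 0.059 to 0.087), and with unscaled signals (adjusted p = 0.0934). The Sprr probe sets not called were those of Sprr1b, Sprr2d, Sprr2f, Sprr2i and Sprr2j-ps, with log2 changes from 0.20 to 0.59. Sprr1b, the close relative of Sprr1a, read 2.42, 6.69 and 9.26 in controls and 22.8, 10.8 and 5.997 in treated cultures, near the pseudocount, and its interval ran from -0.22 to 1.20. Sprr2f, with controls of 23.6, 23.8 and 23.7 and treated values of 46.4, 45.8 and 31.2, had groups that did not overlap but missed the threshold (limma adjusted p = 0.22).

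The probe sets shared by several Sprr2a genes, which are no members, gave further values for the family. At 1450618_a_at the signal was 7.25, 22.98 and 14.7 in controls and 96.1, 105.0 and 85.3 in treated cultures (log2 change 2.14 ± 0.32, SE; limma adjusted p = 0.00165). At 1439016_x_at the log2 change was 1.37 ± 0.13 (SE; limma adjusted p = 0.000125). The third, 1437258_at, stayed between 2.4 and 20.5 on all arrays, with a change of -0.10.

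Late cornified envelope proteins are small cysteine-rich proteins added to the envelope late in its assembly. In the Lce1 group 6 of 13 probe sets, naming 5 genes, were higher, and in the Lce3 group 0 of 4. At an unadjusted p under 0.05, 1 of these 4 was higher and 0 lower by limma. Whether the groups differ was not tested.

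Lce1h and Lce1f had the largest Lce changes, and their order changed with the pseudocount and with the arrays left out. Lce1h, at a shared probe set, read 106.8, 97.9 and 188.2 in controls and 2446, 2616 and 1699 in treated cultures. The log2 change was 4.04 ± 0.24 (SE; limma adjusted p = 8.85e-06), at rank 34 among all probe sets. Lce1f was called at both of its unique probe sets, though with different sizes. At 1420550_at the controls read 9.75, 74.99 and 29.9 and the treated cultures 605.8, 707.9 and 566.1, so the controls spread widely but stayed far below (log2 change 3.98 ± 0.44; limma adjusted p = 0.000293). At 1449902_at the controls read 26.4, 38.7 and 22.8 and the treated cultures 58.7, 79.3 and 68.6, with a log2 change of 1.02 ± 0.28 (limma adjusted p = 0.0346). The call at this second probe set was lost without scaling (adjusted p = 0.154) and on leaving out any array except control array 2 (limma adjusted p from 0.0608 to 0.12).

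Lce1g read 26.8, 36.6 and 34.3 in controls and 85.9, 145.1 and 129.5 in treated cultures (log2 change 1.60 ± 0.26, SE; limma adjusted p = 0.00269). Lce1i, at a shared probe set and above the median in controls, read 187.7, 331.5 and 255.6 there and 718.6, 861.0 and 944.4 after treatment (log2 change 1.69 ± 0.19; limma adjusted p = 0.00031). Lce1l stayed below the array median on all 6 arrays, at 1.73, 4.96 and 0.712 in controls and 32.6, 52.2 and 26.9 in treated cultures (log2 change 1.93 ± 0.30; limma adjusted p = 0.00186). It is the called member that the filter on 3 arrays removes. The promoters of Lce1g, Lce1h and Lce1i were 81.0% to 86.0% identical in pairs, the 3 highest values among 45 Lce1 pairs (median 66.3%). Lce1h and Lce1i were read by shared probes, so their values may hold signal of relatives.

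The remaining Lce1 probe sets had log2 changes from -0.26 (Lce1b) to 0.87 (Lce1d). Lce1d, at a shared probe set, read 19.7, 15.1 and 11.8 in controls and 32.8, 55.03 and 25.0 in treated cultures, without a call (limma adjusted p = 0.119). Its lowest treated value lay above its highest control value. Lce1b read 88.02, 179.5 and 105.0 in controls and 70.2, 136.3 and 96.05 in treated cultures, above the median on all arrays and with overlapping groups. In the Lce3 group, whose human counterparts are known from injured and psoriatic skin, the changes ran from 0.03 (Lce3f) to 0.46 (Lce3b, limma adjusted p = 0.111, 95% interval 0.06 to 0.86). Lce3b was called on leaving out control array 2.

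In the fused S100 family, whose large proteins bind keratin filaments or fill the hair sheath, 0 of 6 probe sets were called by limma, and 0 reached an unadjusted p under 0.05. Filaggrin read 6.73, 12.3 and 8.35 in controls and 11.01, 4.55 and 4.89 in treated cultures, low on every array, with a log2 change of -0.20 (95% interval -0.73 to 0.33). Hornerin read 0.345, 0.432 and 3.26 in controls and 0.259, 0.837 and 0.738 in treated cultures. With both groups below the pseudocount, its log2 change of -0.09 says little about any difference. Repetin changed by -0.10, 0.48 and 0.18 at its 3 probe sets, with overlapping groups at each. At 1420431_at the controls read 15.7, 20.7 and 5.39 and the treated cultures 1.55, 16.2 and 23.1. At 1433210_at the controls read 47.1, 74.7 and 53.8 and the treated cultures 80.03, 110.5 and 66.7. At 1433211_at, the third, the values were 51.8, 68.5 and 69.3 without the drug and 67.6, 86.7 and 64.6 with it. All 3 thus showed no separation. Trichohyalin, of the inner root sheath of the hair, read 20.4, 16.1 and 11.8 in controls and 21.6, 26.8 and 31.4 in treated cultures. The ranges just separated, and the log2 change of 0.50 had an interval from -0.16 to 1.16.

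**Figure D3:**
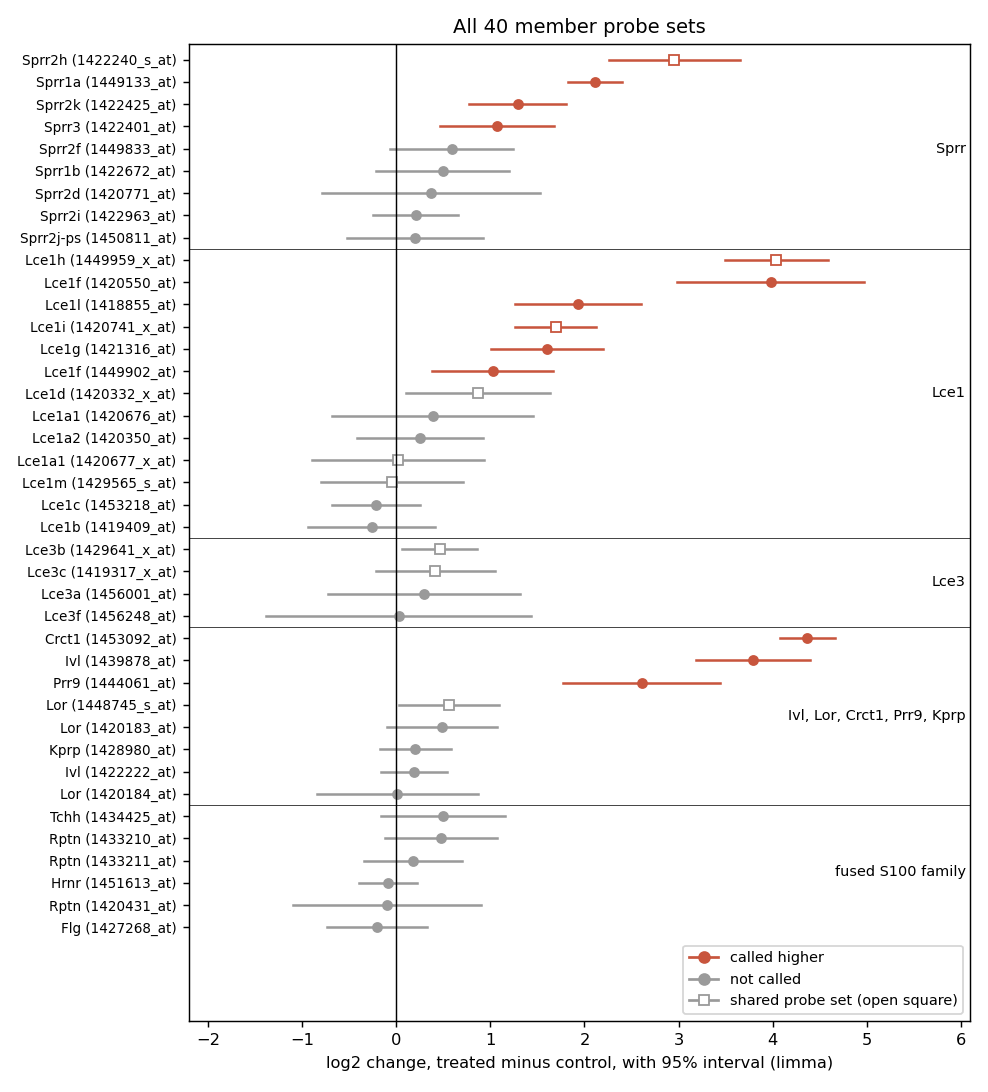
Log2 change with its 95% interval from limma for the 40 member probe sets, grouped by family, with red for those called higher and open squares for shared probe sets. All 13 called members lie to the right of 0, between 1.02 and 4.37, and the Lce3 and fused S100 rows hold none.

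The called members were spread over the complex and stood among genes that were not called. The reference annotation (GRCm38.p6) places 69 protein-coding genes on chromosome 3 from S100a1 to S100a11. Of these, 44 fit the rule for members and 32 had a member probe set. Lce1f, Lce1g, Lce1h and Lce1i follow each other without another protein-coding gene between them, and all 4 were higher. Of these, Lce1h and Lce1i were read only by shared probe sets, whose values may hold signal of relatives. Crct1 lies between Lce3f and Lce1m, at 0.03 and -0.05. Prr9 is the neighbour of Lor, and only Sprr4, for which no probe set of its own was used here, is listed between Sprr1a and Ivl.

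Towards the Lor side of the complex, 7 of 13 probe sets of neighbouring S100 genes were higher and 1 was lower, with a median log2 change of 0.36 (background 9.07% higher and 9.8% lower). The count of 7 fell to 4 with unscaled signals and to 4 without the intensity trend. The 4 probe sets of other neighbours (Smcp, Lelp1, Tchhl1 and 2310050C09Rik) gave 0 calls in either direction by limma, and 0 at an unadjusted p under 0.05. S100a8, a subunit of the inflammatory protein calprotectin, read 7.94, 5.07 and 4.68 in controls and 36.1, 54.2 and 54.7 in treated cultures (log2 change 1.89 ± 0.29, SE; limma adjusted p = 0.00193). Its partner S100a9 changed by 0.35 (limma adjusted p = 0.58). S100a1 was higher at both probe sets (1.37 and 1.39), as were S100a3 (2.07), S100a4 (0.74), S100a13 (0.64) and S100a6 (0.36). S100a16 was lower at its shared probe set (-0.42, limma adjusted p = 0.0287), a call lost without scaling, after quantile normalization, without the intensity trend and on leaving out any array except treated array 3.

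**Figure D4:**
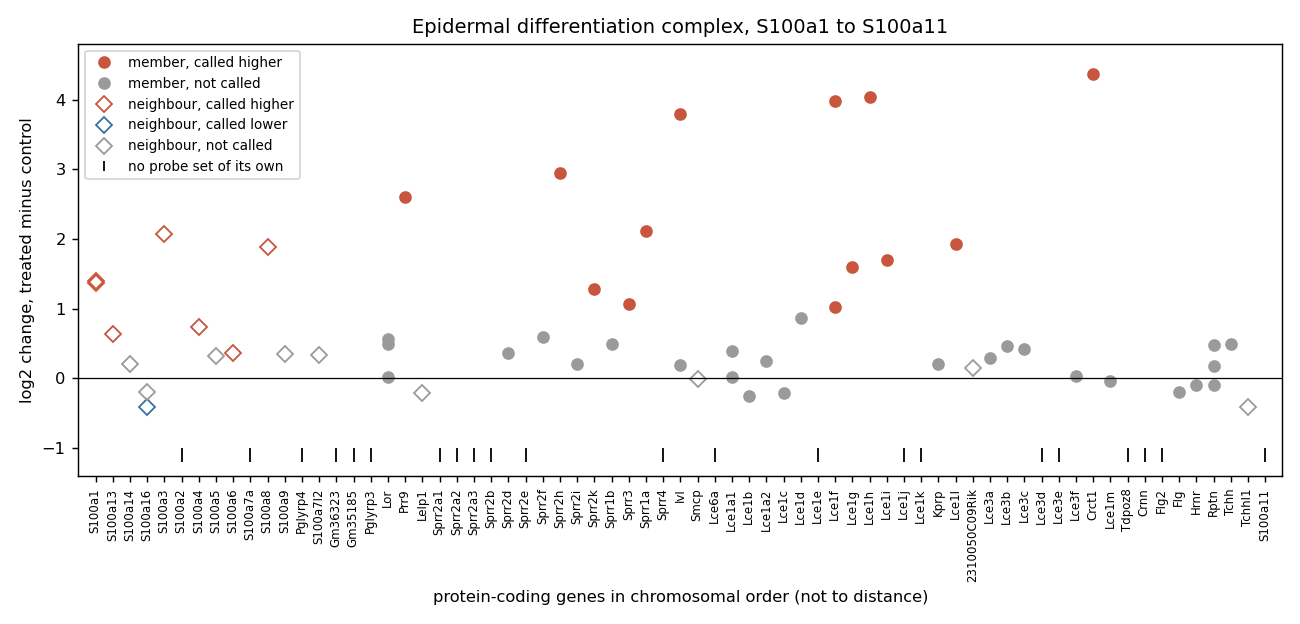
Log2 change of each probe set (vertical axis) along the protein-coding genes of the complex in chromosomal order, not to distance. Filled circles are members and open diamonds neighbours, red for higher, blue for lower and grey for not called, with ticks for genes without a probe set of their own. Called members reach from Prr9 to Crct1, and the fused S100 genes at the right lie between -0.20 and 0.50.

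The wider machinery of cornification was read from a list of 45 other genes, of which 41 had a probe set. Of 51 probe sets 8 were higher and 0 lower, which is 15.7% against the background of 9.07%, with a median log2 change of 0.09. These 8 name 5 of 41 genes, where 14.5% of all singly named genes had a called rise. Dsp, the desmosomal plaque protein, was higher at 2 of 3 probe sets and went from 16.7, 37.5 and 23.4 in controls to 319.5, 386.1 and 124.5 in treated cultures at 1435493_at (log2 change 2.91 ± 0.40, SE; limma adjusted p = 0.0011). Cst6, a cysteine protease inhibitor of the upper epidermis, read 8.98, 16.5 and 24.3 in controls and 53.9, 83.7 and 91.4 in treated cultures (log2 change 1.73). Suprabasin (Sbsn) was higher at 3 probe sets (0.72, 0.77 and 1.36), the epidermal caspase Casp14 at 1 of 2 (1.20) and the phospholipid-binding Anxa1 at 1 of 2 (0.52). Tgm1, the membrane transglutaminase that cross-links these precursors in keratinocytes, read 19.2, 16.3 and 27.8 in controls and 23.8, 30.8 and 14.9 in treated cultures (log2 change 0.08, 95% interval -0.64 to 0.81). Krt1 and Krt10, the keratins of differentiating epidermis, changed by -0.46 (limma adjusted p = 0.144) and -0.02 (adjusted p = 0.979).

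Transcription factors of epidermal differentiation moved in both directions. Of 81 probe sets of 35 such genes, 7 were higher and 18 lower, with a median of -0.05. The share called higher was 8.64%, against a background of 9.07%. The 18 of 81 called lower exceed the background of 9.8% called lower. By gene, 6 of the 35 had a probe set called higher (background 14.5%) and 7 had one called lower. Over all probe sets, 2930 of 18829 gene names had one called lower, with entries of several genes counted as single names. The count by gene is thus closer to the background than the count by probe set. Several of the 18 are repeated probe sets of the same gene, such as Maf and Rora. Fosl1, a subunit of AP-1, was higher at both probe sets. It read 111.3, 120.0 and 102.1 in controls and 493.8, 462.4 and 484.2 in treated cultures at 1417487_at (log2 change 2.02 ± 0.10, SE; limma adjusted p = 4.25e-06), and its second probe set changed by 3.06 ± 0.27. Of the other AP-1 subunits, Fos changed by -1.72 (limma adjusted p = 0.0952), with controls that spread from 1261 to 7306. Fosb, Jun, Junb and Jund were not called, and Fosl2 was lower at 1 of 2 probe sets (-0.28). Whether AP-1 bears on the changes of the members was not tested.

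Trp63, the master regulator of stratified epithelium, was not called at any of 4 probe sets (-0.38 to 0.51), and neither were Grhl3 (0.52), Ovol1 (0.33 and 0.07), Prdm1 (-0.30) or the stress regulator Nfe2l2 (0.22 at each of 2). Grhl3 (95% interval -0.58 to 1.62) and Trp63 at 1418158_at (-0.29 to 1.31) lay below the array median on every array. These dim readings say little about any difference. Klf4, a factor needed for the skin barrier, was lower at 1 of 2 probe sets (-0.47, limma adjusted p = 0.0214). The other changed by -0.50 without a call (limma adjusted p = 0.137), with every treated array below every control array. Maf, known to promote late keratinocyte genes, was lower at 5 of 6 probe sets, going from 1713, 1523 and 2250.5 in controls to 174.2, 129.3 and 208.2 in treated cultures at 1456060_at (log2 change -3.36 ± 0.18, SE; limma adjusted p = 6.1e-06). Rora, a nuclear receptor, was lower at 5 probe sets (-1.60 to -0.70) and higher at 1 (1.33, limma adjusted p = 0.00934), so its probe sets disagree. Satb1 (-1.60 at the probe set with the smallest p), the vitamin D receptor Vdr (-1.23 likewise) and Cebpa (-1.60) were lower. Besides Fosl1 and Rora, the factors with a probe set called higher were Tfap2a (0.69), Grhl2 (0.70), Klf5 (0.60) and Foxn1 (1.08). Each was called at 1 probe set only. Other probe sets of Tfap2a (-0.30 and 0.18), Grhl2 (-0.14 and 0.27) and Klf5 (-0.17) were not called.

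Markers of keratinocytes, the main cell type of the neighbouring epidermis, were set beside these results. Of 26 probe sets of 16 genes, 6 were higher and 0 lower (background 9.07% of probe sets higher), naming Dsp, Perp, Itga6 and Sfn, which are 4 of the 16 genes (background 14.5%). Of these 6, 2 are the Dsp probe sets already counted in the cornification list. The summed signal of the list was 655 to 927 in controls and 1477 to 2199 in treated cultures. The sum includes the 6 called probe sets, so it does not show a rise across the whole list. On all 3 arrays of a group, 3 of the 16 genes exceeded the median in controls and 6 after treatment. The basal keratins Krt5 and Krt14 were not called. Krt5 read 26.2, 99.2 and 89.9 in controls and 105.3, 74.9 and 90.2 in treated cultures, and the log2 changes of the 3 Krt14 probe sets were 0.82, 0.96 and -0.05 (limma adjusted p = 0.134, 0.193 and 0.941). Cdh1, the epithelial cadherin, lay between 14.8 and 30.6 on all 6 arrays. The part of keratinocytes in the result was not tested.

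Other cell types were read in the same way. By limma 0 of 16 melanocyte and 0 of 7 endothelial probe sets were called, and 1 of 9 leukocyte probe sets was higher (Cd68, 1.08). The background was 9.07% of probe sets called higher and 9.8% called lower, so the leukocyte share of 11.1% is near it. At an unadjusted p under 0.05, 1 melanocyte probe set was higher and 3 lower, and 1 endothelial probe set was higher and 1 lower. Of all 45037 probe sets, 6515 were higher and 6753 lower at that threshold. Of 25 fibroblast probe sets 17 were lower, far above the background share, and 1 was higher (S100a4). The lower ones include probe sets of Col3a1, Col5a1, Pdgfra, Col1a1, Col1a2, Pdgfrb, Lum and Dcn. The collagen gene Col3a1 read 2744, 3048 and 3493 in controls and 177.7, 157.0 and 178.5 in treated cultures at 1427884_at, a log2 change of -4.10 ± 0.10 (SE; limma adjusted p = 1.55e-07).

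**Figure D5:**
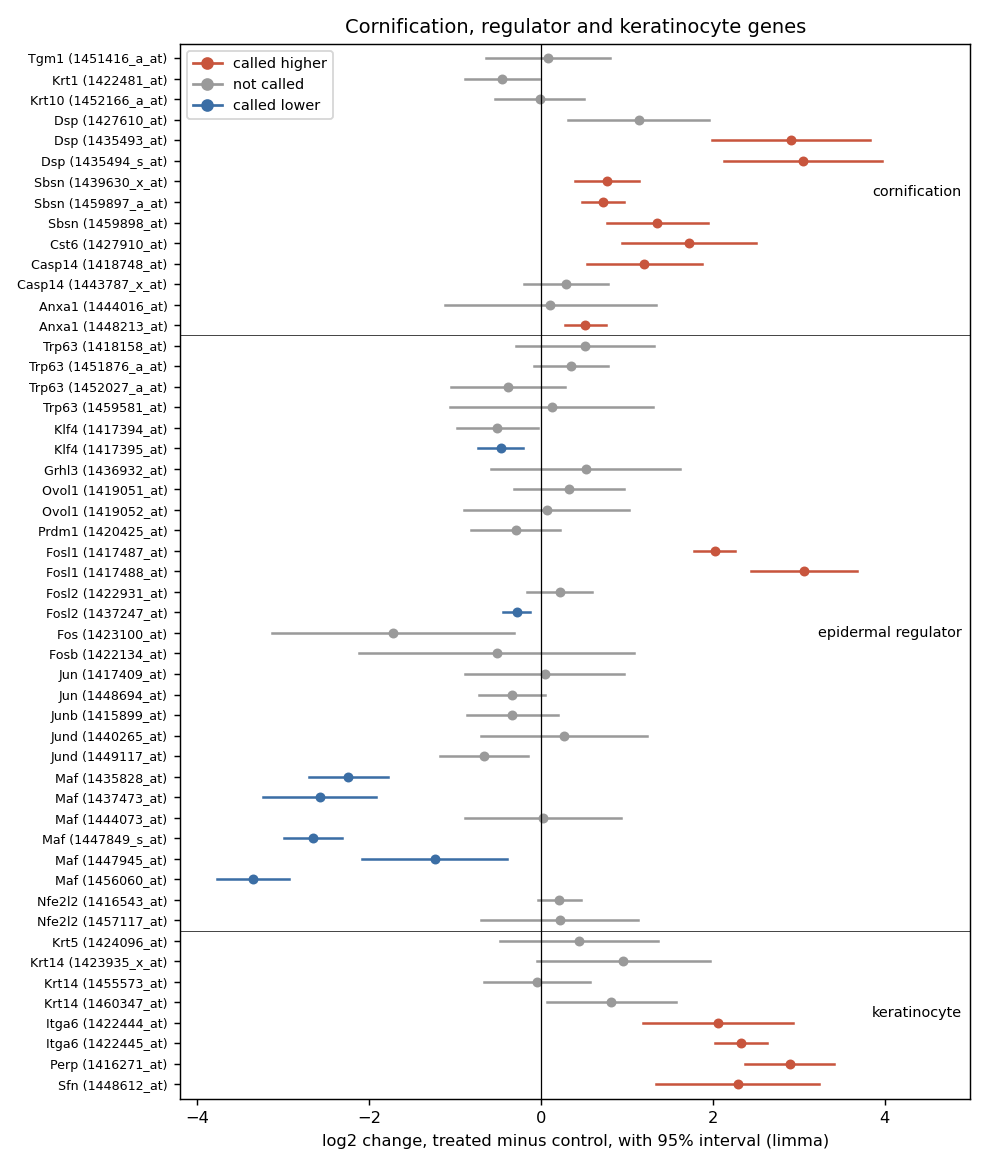
Log2 change with its 95% interval from limma for selected genes of the cornification, regulator and keratinocyte lists, with red for higher, blue for lower and grey for not called. Dsp, Fosl1, Itga6, Perp and Sfn lie above 2 at 1 or more probe sets, Maf lies below -1 at 5 probe sets, and Tgm1, Krt10 and Trp63 span 0.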

How the data were processed

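Expression was measured on 6 arrays, 1 per culture, and groups came from the sample titles. The deposited values are signal intensities on a linear scale, and per the submitters' processing notes the tool was MAS5. The version used is not given in those sources. Without detection calls in use, signals near background were kept. Each array was scaled to a 2% trimmed mean of 193.2 (mean over arrays). Then log2(signal + 9.66) was tested in limma 3.58.1 (R 4.3.3), using lmFit and eBayes (trend on), two-sided, with Benjamini-Hochberg adjustment over 45037 probe sets, without the 64 manufacturer's controls and with no intensity filter. The 95% intervals and standard errors are moderated. The procedure was tested on simulated data. Gene names came from the platform annotation and gene order from GRCm38.p6.

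To be named with values were all called members, the genes of the rule outside Lce and Sprr, up to 8 called genes per list with the smallest p, and 12 genes chosen for their role. S100a9, Cdh1, Sprr1b, Sprr2f, Lce1b, Lce1d, the lowest and highest uncalled members, Grhl2, Klf5, Foxn1, Cebpa and the other AP-1 subunits were added with their values in view. The members and lists were chosen with earlier results of these data known. Alternatives were unscaled signals, quantile normalization, pseudocounts of 1 and 38.6, 2 filters on dim probe sets, no intensity trend, a replicate block and leaving out each array. Explants were separate for each biological replicate, per the labels. Whether a treated and a control culture of the same number share an explant is not stated there. With 6 arrays, precision is limited.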

Additional observations from a re-analysis of the deposited data

How the results depend on the processing

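The same 13 member probe sets were called higher with quantile normalization, with a pseudocount of 1 or 38.6, without the intensity trend and with the replicate block, and 0 members were lower in these or the other settings. Without scaling 11 of the 13 remained, and 5 cornification and 4 regulator probe sets were higher, where 8 and 7 had been; over all probe sets 1757 were then higher and 2595 lower, against 4084 and 4415. The filter on the mean signal, which treated arrays help to pass, left 16 members, of which 8 were higher, and 4 higher cornification probe sets, since it tests fewer probe sets; the filter on 3 arrays left 21, of which 12 were. Without the intensity trend 4 regulator probe sets were higher (the cause was not tested). Leaving out 1 array gave 11 to 14 members higher, 7 to 9 cornification probe sets higher, 3 to 6 regulator probe sets higher and 11 to 17 lower, with 3 higher and 11 lower without control array 3 and 3 higher without treated array 3. Uncalled changes near 0 turned sign: Lor 1420184_at to -0.023 unscaled and -0.015 after quantile normalization, and over left-out arrays from -0.27 to 0.27, Rptn 1420431_at from -0.41 to 0.36 and Hrnr from -0.15 to 0.031. Deviations of same-numbered cultures from their group means correlated at 0.19, 0.18 and 0.082, and each culture correlated best with its own number, which is a hint from the data and not from the design. With the number as a replicate block 13 members were higher, and over all probe sets 4213 were higher and 4544 lower. Signals at or below about the pseudocount, as for Hrnr, limit what can be measured.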

Other observations

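Genes known from the hair follicle, where trichohyalin is made, were read beside the members, hair keratins as well as regulators. Of 14 probe sets in that list, 3 were higher and 0 lower by limma (background 9.07% higher), and 8 of the 14 changes were positive. The 3 name Msx2, Hoxc13 and Foxn1, of 11 genes measured (background 14.5% of genes). No hair keratin of the list was called. Msx2, a homeobox gene of the hair matrix, read 39.5, 45.6 and 30.4 without the drug and 254.7, 249.9 and 186.7 with it, and the groups did not overlap (log2 change 2.32 ± 0.20, SE), while its second probe set was not called (log2 change 0.93, limma adjusted p = 0.074). Hoxc13, which drives hair keratin genes, read 7.08, 5.5 and 6.41 in controls and 32.5, 44.7 and 70.9 in treated cultures (log2 change 1.83 ± 0.32). Foxn1, the gene altered in nude mice, changed by 1.08 at a probe set that stayed below the array median on all 6 arrays, and by 0.74 at a brighter one that was not called (limma adjusted p = 0.148). Trichohyalin itself was not called.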
